A study of Mus musculus with 5 samples.

Results

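CUT&Tag, which reads out where a DNA-binding protein sits on chromatin, gave 8038 enriched regions in the embryonic mouse retina for Pou4f1, and the 494 described here lay between genes at a moderate distance from a start. A region was taken when its midpoint fell outside the body of every gene of GENCODE M21 (build mm10), over 1 kb from every transcript start and at most 50 kb from the nearest start of a protein-coding gene. Of the 494, 375 lay upstream of that nearest coding gene and 119 lay downstream of it, beyond its end. They made up 6.15% of the table. Of the remaining regions, 5150 lay within 1 kb of a start, 1659 in the body of a gene and 735 between genes beyond the limit of 50 kb.

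All libraries came from whole retinas of wild-type (WT) mouse embryos at E16.5, 4 retinas to a pool. Each library thus mixes the cell types present in the retina at that stage. The groups compared were rabbit anti-Pou4f1 (n = 2) and IgG (n = 2). Of the control columns, one is named IgG and the other only Negative8. The latter, called the negative control here, was taken as IgG since the paper names no negative control besides rabbit IgG and the labels list none, although no label ties the column to a sample. The 1 library made with rabbit anti-H3K9AC was not analysed here. Control values are given below in the order IgG, negative control. The study's methods call the replicates independent without saying what was repeated, so p-values measure only the spread between these libraries, which may be technical.

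Pou4f1 (Brn3a) is a class IV POU-homeodomain transcription factor. In the retina it is made by differentiating and mature retinal ganglion cells, the neurons whose axons form the optic nerve, and it is also known from sensory ganglia. POU factors bind DNA through a POU-specific domain and a homeodomain joined by a linker, and class IV members prefer A/T-rich sites. Regulatory elements away from promoters can act on genes over long distances and past other genes, so the nearest coding gene is used below only to say where a region is. Whether a region acts on that gene was not measured.

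The letters searched for as the POU motif were ATNAATAATT and ATNAATTATT, on either strand, with the midpoint-centred 200 bp as the window. A match stood in 44 of the 490 regions on assembled chromosomes. The lines below give 50 bases of mm10 around the match, read along the strand of the motif, for the 8 such regions with the highest mean Pou4f1 signal, and for the one assigned to Cartpt, which was added after its values were seen because the study's ChIP-qPCR amplicon lies in it. Capitals mark the motif.
Prima1 (upstream of the gene, chr12:103265896-103265945, minus strand): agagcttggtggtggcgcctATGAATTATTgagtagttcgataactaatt
Cacnb3 (upstream of the gene, chr15:98628651-98628700, minus strand): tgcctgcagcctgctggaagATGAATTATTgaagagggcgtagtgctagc
Syt7 (upstream of the gene, chr19:10385511-10385560, plus strand): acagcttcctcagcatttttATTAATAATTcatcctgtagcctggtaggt
Kcna1 (downstream of the gene, chr6:126629784-126629833, plus strand): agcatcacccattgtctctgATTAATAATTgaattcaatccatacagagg
Agbl1 (upstream of the gene, chr7:76185383-76185432, plus strand): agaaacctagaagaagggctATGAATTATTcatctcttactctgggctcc
Inhbb (downstream of the gene, chr1:119407862-119407911, plus strand): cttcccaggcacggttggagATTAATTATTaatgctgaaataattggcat
Rtl6 (upstream of the gene, chr15:84593666-84593715, minus strand): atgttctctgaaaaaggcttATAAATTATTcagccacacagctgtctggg
Mul1 (upstream of the gene, chr4:138422684-138422733, plus strand): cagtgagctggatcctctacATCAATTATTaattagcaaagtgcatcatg
Cartpt (upstream of the gene, chr13:99945425-99945474, plus strand): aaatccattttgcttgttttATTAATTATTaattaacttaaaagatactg
In the windows of Syt7, Agbl1, Inhbb, Mul1 and Cartpt the letters that follow the capitals complete a second match on the opposite strand, offset by 3 bases. Prima1 anchors acetylcholinesterase at membranes, Cacnb3 is a beta subunit of voltage-gated calcium channels, Syt7 is a calcium sensor of vesicle release and Kcna1 is a voltage-gated potassium channel. Agbl1 trims glutamates from proteins such as tubulin, Inhbb is the beta B subunit of activins and inhibins, Rtl6 is a gene derived from a retrotransposon, Mul1 is a mitochondrial ubiquitin ligase and Cartpt encodes the CART neuropeptide.

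At each of these 9 regions the lower of the Pou4f1 libraries exceeded the higher of the IgG libraries, as at 96.5% of the table. The first 8 were picked by their Pou4f1 signal, so this adds no support of its own. Upstream of Prima1, Pou4f1 replicates 1 and 2 read 501 and 934, and the IgG libraries 23.5 and 27.4. Upstream of Cacnb3 the Pou4f1 signal was 632 and 730 against 0 and 18. RefSeq places a start of Cacnb3 itself 309 bp from the midpoint of that region. Upstream of Syt7 it was 367 and 500 against 6.72 and 0. These stood among the strongest of the regions in both Pou4f1 libraries, and IgG was low or listed at 0. Of 2 regions downstream of Kcna1, the one 10.5 kb past the end of the gene holds the motif. There the Pou4f1 signal was 321 and 534, and downstream of Inhbb it was 301 and 526, with both regions listed at 0 in both IgG libraries. Upstream of Agbl1 it was 402 and 452 against 8.85 and 0, and upstream of Mul1 it was 375 and 416, listed at 0 in IgG. Upstream of Rtl6, replicate values of 341 and 480 compared with 33.1 and 19.3 in IgG. Replicate 2 was the higher of the pair in each of these 8. By limma on log2(signal + 1), all 8 were called higher in Pou4f1, beside 64.8% of all 8038 regions. Their Benjamini-Hochberg adjusted p lay between 0.0022 for Kcna1, Inhbb and Mul1 and 0.038 for Cacnb3. With column totals taken as library sizes the log2 difference at Rtl6 turned from 3.95 to -0.05. These totals run over regions chosen by Pou4f1 signal, with means of 219 and 206 in Pou4f1 and 11.0 and 15.0 in IgG. Making them equal takes out the average excess over IgG, while values of 0 stay 0. Falls under this scaling, and the passing of regions at 0, are therefore partly built in. Under that scaling only Kcna1, Inhbb and Mul1 of the 8 passed, the regions listed at 0 in both IgG libraries.

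The deposited value is a signal, an average over the length of a region, and not a read count. Multiplied by the region's length, 100% of the IgG values above 0 were whole multiples of the library's smallest product (tolerance 0.05). The sources used here do not give the depth of the libraries. Over the 494 regions, the signal in Pou4f1 replicate 1 ran from 39.1 to 803 with a median of 185, and in replicate 2 from 0 to 1167 with a median of 209. In IgG the medians were 4.48 and 0, and 239 and 248 of the regions were listed at 0. The Pou4f1 levels upstream and downstream were alike in their medians, 184 and 210 upstream against 185 and 209 downstream. IgG medians were 0 and 0 upstream and 6.96 and 4.33 downstream. Across the 494 regions the Pou4f1 replicates had a Pearson correlation of 0.80 and a Spearman correlation of 0.78, while the IgG libraries had 0.62 and 0.27. These are descriptions over regions that share their libraries.

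**Figure D1:**
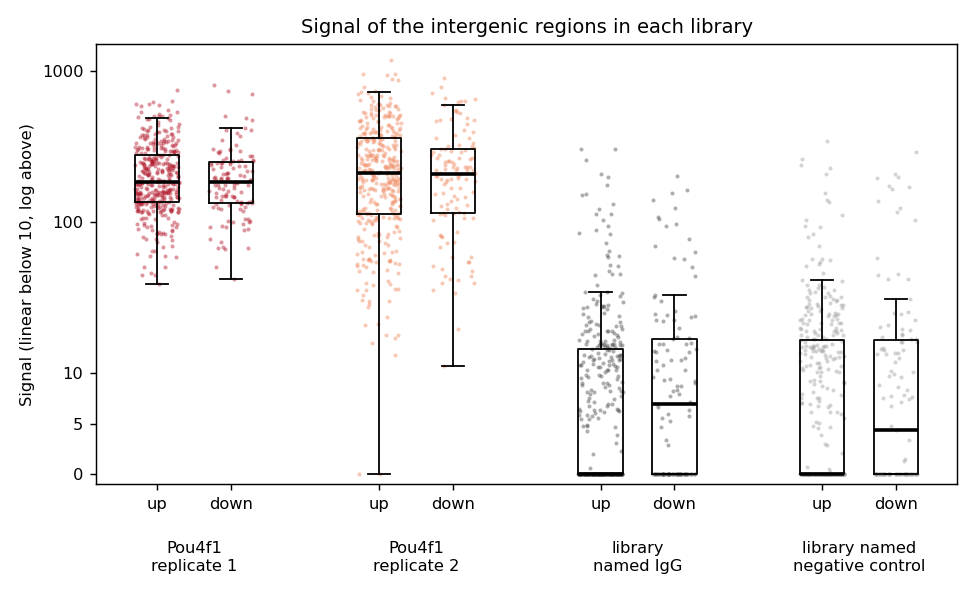
Signal of the 375 upstream (up) and 119 downstream (down) regions in each of the 4 libraries, with the vertical axis linear below 10 and logarithmic above. Each point is 1 region, boxes show the quartiles with the median as a thick line, and whiskers reach the farthest value within 1.5 box lengths. The Pou4f1 medians lie between 184 and 210, and the IgG medians between 0 and 6.96.

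The comparison with IgG asks at which regions the anti-Pou4f1 antibody gave more signal than a non-specific antibody. The authors chose the regions by their Pou4f1 signal, so most of the table is higher in Pou4f1 by construction. Both Pou4f1 values exceeded both IgG values at 459 of the 494 regions (92.9%), against 96.5% over the table. Both fell short of both IgG values at 17 regions (3.44%), against 1.46%. By limma 336 of the 494 (68.0%) were higher in Pou4f1, against 64.8% of all 8038 regions, a share close to that of the table. Of the upstream regions 261 of 375 (69.6%) were called higher and of the downstream regions 75 of 119 (63.0%). Upstream, 3 regions were called lower, against 0.224% of the table. Downstream limma called 0 lower, although at 6 regions there both Pou4f1 values were below both IgG values. The median log2 difference was 5.65 for the 494, 5.84 upstream and 5.49 downstream, beside 5.22 over the table. Only 2 libraries stood in each group, so an exact permutation test on a single region cannot go below p = 0.33.

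The share of calls differed with the zeros of the controls. Limma called all 137 regions listed at 0 in both IgG libraries, 110 of the 213 listed at 0 in one (51.6%) and 89 of the 144 with signal in both (61.8%). Among regions within 1 kb of a start, the corresponding shares were 99.7%, 33.2% and 78.6%. Among the 357 of the 494 with any IgG signal, the median log2 difference was 4.87. The split of calls moved with the scaling, from 336 higher and 3 lower to 137 higher and 24 lower when column totals were used as library sizes. The fall was shared by the table, where the share called higher went from 64.8% to 22.7%, against 68.0% to 27.7% for the 494. Without Pou4f1 replicate 1 the median log2 difference was 5.71 for the 494 and 5.06 over the table. Without replicate 2 it was 5.65 and 5.38. Among the 357 regions with any IgG signal, 199 were called, and this number was 1 with column totals, 18 with IgG taken as 4 times shallower, 27 without Pou4f1 replicate 1 and 34 without replicate 2.

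Of the upstream regions, the highest mean Pou4f1 signal lay 10.3 kb upstream of Pdcd4 (chr19:53881677-53882197), an inhibitor of translation initiation. It read 454 and 1167 in the Pou4f1 replicates against 15.7 and 36.5 in IgG, so the replicates differed by over 2-fold while the groups did not overlap. The log2 difference there was 4.87 ± 0.80 (SE; adjusted p = 0.019). The region 21.7 kb upstream of Lpar3 (chr3:146198546-146200016), a receptor for lysophosphatidic acid, had 744 and 863 against 8.29 and 0. Upstream of Fcnb, a ficolin of innate immunity, the values were 581 and 952 against 21 and 0. Upstream of Smim18 they were 535 and 949 against 0 and 17.8, and upstream of Dpp8, a dipeptidyl peptidase, 598 and 874 against 44.8 and 27.0. None of these 5 regions held the POU motif in its central window. All 5 were called higher, with adjusted p from 0.0093 to 0.042, beside 64.8% of the table. They were picked by the Pou4f1 signal that the call also uses. None of the 5 passed with column totals as library sizes (adjusted p from 0.37 to 0.72) or without either Pou4f1 library (0.097 to 0.32).

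Downstream, the region with the highest mean Pou4f1 signal lay 6.89 kb past the end of Trarg1 (chr11:76704843-76706270), a regulator of glucose transporter traffic. It read 728 and 891 in the Pou4f1 replicates against 8.28 and 0. Past the end of Pard6b, a cell polarity protein, the values were 803 and 708, and the region was listed at 0 in both IgG libraries. Past Htr5a, a serotonin receptor, they were 705 and 634 against 6.61 and 0, and past Spink2, a protease inhibitor, 371 and 777 with 0 in both IgG libraries. Past Six3, a homeobox gene of early eye development, they were 485 and 661 against 24.6 and 14.6. In these 5 regions too the groups did not overlap, each was called higher (adjusted p from 0.0022 to 0.019) and none held the motif in its central window. They were likewise picked by their Pou4f1 signal. Over the table, Pou4f1 lay above IgG without overlap at 96.5% of regions, and 64.8% were called higher. With column totals, or without either Pou4f1 library, Pard6b and Spink2 passed and Trarg1, Htr5a and Six3 did not (adjusted p from 0.088 to 0.54). Replicate 1 was the higher library at Pard6b and Htr5a and replicate 2 at the other 3.

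A downstream region must lie past the end of its gene, so distances from the start are not like for like between the sides. Upstream, the midpoint was a median of 15.1 kb from the coding start (quartiles 5.88 and 29.2 kb), and 76 of 375 were within 5 kb. Downstream the median was 24.8 kb (15.1 and 36.4 kb), with 3 of 119 within 5 kb of the start, but the distance past the end of the gene had a median of 10.1 kb (4.27 and 19.7 kb), and 37 of 119 were within 5 kb of that end. For 170 of the 494 regions the nearest start of any kind belonged to a gene that is not protein-coding, among them 57 long intergenic RNAs and 49 processed pseudogenes. RefSeq places a transcript start within 1 kb of 44 of the 494, of which 23 are long non-coding RNAs, 13 mRNAs and 8 tRNAs. Among the regions named in the text, those of Cacnb3 (309 bp), Klf13 (75 bp, Gm32633) and Slit1 (227 bp, Gm19424) belong here. So do those of Btg2 (291 bp, Gm19497), Hic1 (277 bp) and Skor2 at 9.04 kb (628 bp). At the limits of the rule, the region 1013 bp from the start of Hic1 was in, with a Pou4f1 signal of 118 and 63.7, and the region 998 bp from Agbl5 was out, with 131 and 87.3. The region 49.9 kb from Fggy was in, with 371 and 605, and the region 50022 bp from Cep85l was out, with 279 and 439.

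The 494 regions were assigned to 446 coding genes, of which 409 had 1 region each. A region of the table within 1 kb of a start of the same gene was present for 189 of the 494 (38.3%). In 105 of these 189 pairs (55.6%) the intergenic region had the higher mean Pou4f1 signal, with a median of 204 against 156 at the starts. The pairs were not split by library. Over all 494 regions the medians of Pou4f1 replicates 1 and 2 were 185 and 209. Over all regions within 1 kb of a start they were 183 and 130, so the libraries differed in this contrast. The nearest other region of the table was a median of 36.2 kb away, and it was within 5 kb for 72 (14.6%), more often upstream (16.3%) than downstream (9.24%), a difference that was not tested.

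Some genes had several regions. Pou4f3, the paralogue of Pou4f1 that is best known from inner ear hair cells, had 5, with 2 upstream and 3 downstream. The farthest of them, 34.8 kb downstream of the start, had the highest signal, 251 and 630 in the Pou4f1 replicates against 8.31 and 0 in IgG (adjusted p = 0.029). At 11.45 kb upstream the signal was 118 and 113 against 9.12 and 10.6 (log2 difference 3.42 ± 0.38, adjusted p = 0.0082), a difference of -0.49 with column totals as library sizes. The other 3 did not pass the threshold, with adjusted p from 0.060 to 0.083, although in each of them the groups did not overlap. Their Pou4f1 signal ran from 102 to 303, and each was listed at 0 in 1 IgG library.

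Pou4f1 itself had 4 regions. Upstream at 1.88 kb the signal was 129 and 278 in the Pou4f1 replicates against 13 and 7.59 in IgG (log2 difference 4.12 ± 0.64, adjusted p = 0.017). At 3.90 kb it was 94.9 and 60.5 against 0 and 12.6, which did not pass (adjusted p = 0.076). At 5.69 kb, in the region that holds the study's Pou4f1 ChIP-qPCR amplicon (chr14:104472890-104474485), it was 231 and 191 against 0 and 8.91 (adjusted p = 0.035). Downstream, 0.87 kb past the end of the gene, it was 296 and 254 against 12.0 and 0 (adjusted p = 0.040). The last of these holds a match to the POU motif, outside its central window, and the upstream region at 3.90 kb was the weakest of the 4 in both Pou4f1 libraries. None of the 3 calls held without either Pou4f1 library (adjusted p from 0.094 to 0.32) or with column totals, where the log2 difference at 1.88 kb fell to 0.20 (adjusted p = 0.84).

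Crb2, a polarity gene whose loss disturbs retinal layering, had 4 upstream regions. At 31.3 kb the Pou4f1 signal was 322 and 356, with both IgG libraries at 0, and at 17.8 kb it was 333 and 345 against 0.64 and 0. At 7.23 kb the signal was 354 and 725 against 27.5 and 24.0. At 4.47 kb it was 159 and 112 against 6.45 and 15.0, and there the log2 difference of 3.62 became -0.29 with column totals as library sizes. All 4 passed the threshold, beside 64.8% of the table, a share that also stands beside the calls at the genes below. Skor2, a transcriptional corepressor known from Purkinje cells, had 3 upstream regions at 40.2, 33.3 and 9.04 kb. Their Pou4f1 signal ran from 217 to 415 and their IgG signal from 0 to 12.6, and all 3 passed. Otos, a cochlear protein, had 3, from 28.99 to 32.3 kb upstream, all of which passed, the strongest with 506 and 611 against 2.33 and 0. Ptma, the precursor of prothymosin alpha, had 3, at 39.0, 34.6 and 22.3 kb upstream, with Pou4f1 signal from 35.8 to 226 and with 2 of the 3 passing. With column totals as library sizes the log2 differences of the 2 farther ones turned negative, to -0.93 and -1.62. With column totals, of the regions of Pou4f1, Pou4f3, Crb2, Skor2, Otos and Ptma, only those listed at 0 in both IgG libraries passed: 1 each at Crb2 and Skor2 and 2 at Otos. Values of 0 do not move with a scaling, so this split is partly built in. The gene AC149090.1, on an unplaced scaffold, also had 3 and is described with the control signal below.

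**Figure D2:**
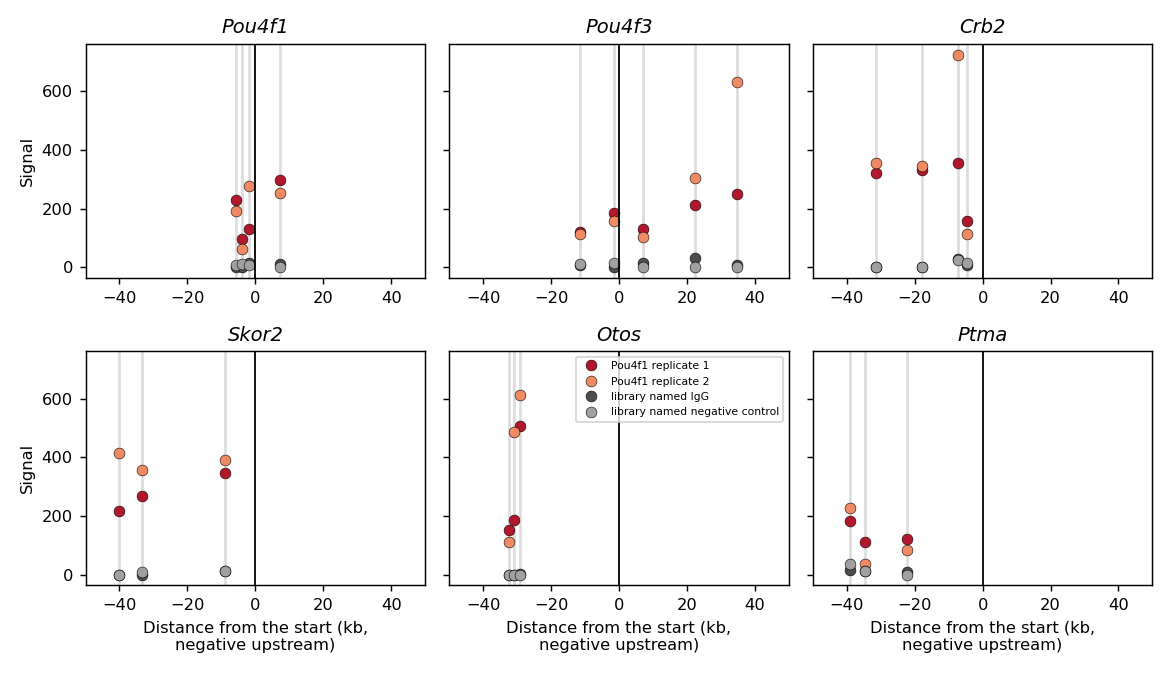
Signal (vertical axis, the same linear scale in all panels) of each intergenic region assigned to Pou4f1, Pou4f3, Crb2, Skor2, Otos and Ptma against its distance from the start of the gene in kb, negative upstream. Grey lines mark the regions and the black line the start. The highest point is Crb2 in Pou4f1 replicate 2 at 725, and IgG points stay at or below 35.6.

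The nearest coding genes were next read against 6 gene lists. Of 169 retinal and ganglion cell transcription factor genes, 21 had at least 1 of the 494 regions, 29 regions in all, with 15 upstream and 14 downstream. In all 29 the groups did not overlap with Pou4f1 the higher, beside 96.5% of the table, and 18 (62.1%) were called higher, near the 64.8% of the table. The number called was 7 with column totals and 9 without either Pou4f1 library. The median log2 difference was 5.87, beside 5.22 over the table. The strongest lay 47.8 kb upstream of Klf13, a Krüppel-like zinc finger gene, and 75 bp from a RefSeq start of the non-coding gene Gm32633. It had 616 and 702 in the Pou4f1 replicates against 0 and 55.9, which did not pass (adjusted p = 0.078). There 1 control library was at 0 and the other well above it. The Six3 and Pou4f3 regions described above also belong to this list. Pou4f2, the POU factor that starts ganglion cell differentiation, had 1 region 9.43 kb downstream of its start with 205 and 239 against 9.05 and 10.4, and it held the POU motif. Isl1, the LIM-homeodomain partner of Pou4f2, had 1 region 15.9 kb downstream with 166 and 132, listed at 0 in both IgG libraries. These 2 were chosen after their values were seen. Downstream of Tbr1, a T-box gene of ganglion cell subtypes, the signal was 176 and 184 against 0 and 18.3 (adjusted p = 0.064). That region overlaps a coordinate given in the paper.

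Synapse, channel and receptor genes had 23 regions near 18 genes, 17 of them upstream. Of these 19 (82.6%) were called higher, beside 64.8% of the table, and the median log2 difference was 6.22, beside 5.22. The number called fell to 4 of the 23 with column totals, beside 22.7% of the table. It fell to 5 with IgG taken as 4 times shallower, beside 26.8% of the table. In both settings the share of this list was below that of the table. Besides Cacnb3, Htr5a and Syt7, described above, the strongest were upstream of Kcnq3, a potassium channel of the M-current, with 340 and 671 against 15.4 and 0, and of Cacng5, a subunit of calcium channels and AMPA receptors, with 414 and 587 against 14.3 and 0. The POU motif stood in the central window of 6 of the 23. The exception to the Pou4f1 side was the region 12.1 kb downstream of Tac1, the precursor of substance P, with 138 and 58.8 in the Pou4f1 replicates against 97.5 and 207, and it was chosen after its values were seen. The ChIP-qPCR amplicon assigned to Cartpt lies in a region 44.3 kb upstream of that gene, with 159 and 239 against 8.56 and 30.6 (log2 difference 3.49 ± 0.81, adjusted p = 0.037), a difference of -0.46 with column totals as library sizes.

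Axon guidance and cell adhesion genes had 9 regions, all upstream, of which 8 (88.9%) were called higher, beside 64.8% of the table. The number was 3 with column totals and 4 without either Pou4f1 library. The strongest were those of Unc5b, a netrin receptor, with 375 and 585 and 0 in both IgG libraries, of Efna3, an ephrin, with 381 and 464 against 10.5 and 9.14, and of Nfasc, a neurofascin of the axon initial segment and nodes, with 260 and 465 against 0 and 5.06. Upstream of Tenm4, a teneurin, the values were 338 and 226 against 7.22 and 14.3, and upstream of Slit1, a repulsive guidance cue for axons, 222 and 318 against 6.16 and 30.7. Of these 5, picked by their Pou4f1 signal, replicate 1 was the higher library at Tenm4 alone. The full list of 9 leaned the other way. Its Pou4f1 medians were 260 in replicate 1 and 226 in replicate 2. Region by region, replicate 2 divided by replicate 1 had a median of 0.87.

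Ganglion cell markers and cytoskeletal genes had 8 regions, 7 of them (87.5%) called higher, beside 64.8% of the table. The number was 3 with column totals or with IgG taken as 4 times shallower. Upstream of Igf1, a growth factor, the signal was 305 and 679, listed at 0 in IgG, and upstream of Rbfox3, which encodes the neuronal antigen NeuN, it was 349 and 364 against 8.12 and 0. Upstream of Stmn4, a stathmin, it was 208 and 200 against 0 and 25, which did not pass (adjusted p = 0.076). Downstream of Kif26a, an atypical kinesin, it was 97.2 and 206 with 0 in both IgG libraries, and upstream of Rbfox1, a splicing factor, 192 and 89.8 against 24.5 and 14.6, a log2 difference of 2.73 that became -1.24 with column totals as library sizes.

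Notch, cell cycle and progenitor genes had 8 regions, of which 3 (37.5%) were called higher, beside 64.8% of the table. With so few regions the number ran from 1, with column totals or without either Pou4f1 library, to 8 without the library named IgG. Their Pou4f1 medians, 142 and 110, were below those of the 494. The strongest was downstream of Fgf8, a fibroblast growth factor, with 385 and 356 against 6.36 and 0. Downstream of Ccne1, a cyclin of the G1/S transition, it was 258 and 211 against 12.2 and 7.77, and upstream of Bmp4 124 and 164, listed at 0 in IgG. These 3 passed. Downstream of Btg2, an antiproliferative gene, the values were 153 and 115 against 50.7 and 17.4 (adjusted p = 0.069), a log2 difference of 2.12 that became -1.87 with column totals as library sizes, and upstream of Dkk3, a secreted Dickkopf protein, 127 and 105 against 13.4 and 0 (adjusted p = 0.062). Housekeeping genes, with 493 in the annotation, had 7 regions, of which 4 (57.1%) were called higher, near the 64.8% of the table, a number that ran from 1 to 7 over the alternatives. Downstream of Rps15a, a ribosomal protein gene, the signal was 415 and 588 against 0 and 14.2, and upstream of Ndufb4, a subunit of respiratory complex I, 236 and 422 with 0 in both IgG libraries.

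The last region with a study amplicon did not pass the limma threshold. The paper tested selected elements by ChIP-qPCR with the same antibody and reports that the results matched its CUT&Tag data. Those measurements were not re-analysed here. Upstream of Irx1, an Iroquois homeobox gene whose amplicon lies in the region (chr13:71967476-71968357), the signal was 136 and 32.9 against 27.7 and 31.8. Its Pou4f1 libraries differed by over 2-fold, the log2 difference was 1.16 ± 0.88 (adjusted p = 0.28), and it turned to -0.81 and -2.83 with IgG taken as 4 times shallower and with column totals.

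The POU motif stood in the central 200 bp of 8.98% of the 490 regions on chromosomes (44, 95% Clopper-Pearson interval 6.60 to 11.9%) and in 0.41% of windows of the same length 2 kb to each side (4 of 980, 0.11 to 1.04%). The intervals do not overlap, and they cover counting error only. The share was 9.07% upstream (6.36 to 12.4%) and 8.70% downstream (4.25 to 15.4%). It was 11.7% in regions between genes beyond 50 kb (9.49 to 14.3%) and 11.4% in regions within genes (9.91 to 13%), intervals that overlap that of the 490, and 0.68% within 1 kb of a start (0.47 to 0.94%), one that does not. Matches, counted on each strand, fell off with distance from the midpoint. There were 12.9 per 100 regions within 100 bp on either side, 2.24 at 400 to 500 bp and 0.61 at 900 to 1000 bp. Anywhere in the region, 106 of the 490 had a match.

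**Figure D3:**
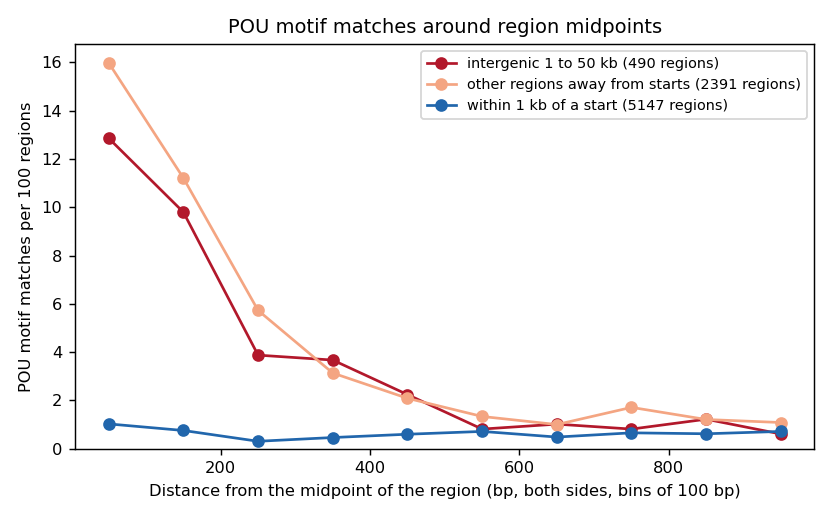
Matches to the POU motif per 100 regions (vertical axis) in bins of 100 bp by distance from the midpoint of the region (horizontal axis, both sides added), for the 490 intergenic regions, for 2391 other regions away from starts and for 5147 within 1 kb of a start. The intergenic regions fall from 12.9 to 0.61, and regions at starts stay at or below 1.03.

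The 44 regions held 59 central matches in all 8 spellings that the motif allows. The most frequent was ATGAATTATT with 14 matches, followed by ATTAATAATT with 12, ATAAATAATT with 10 and ATTAATTATT with 8. In 13 of the 44 (29.5%, 16.8 to 45.2%) the matches lay on opposite strands, offset by 3 bases within a run of 13, as in the Syt7 and Inhbb windows printed above. The endings AATAATT and AATTATT are reverse complements, so a match followed by any base and AT is counted again on the opposite strand. The offset is thus set by the letters searched, and such runs enter the 59 matches and their spellings on both strands. The same arrangement made up 30.2% of the 86 regions with a match beyond 50 kb, 30.2% of the 189 within genes and 34.3% of the 35 at starts, with overlapping intervals.

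Regions with a central match had median Pou4f1 signals of 230 and 262, against 181 and 200 without one, and IgG medians of 0 and 0 against 4.70 and 0.34. The 490 were ordered by mean Pou4f1 signal into 5 groups of 98. None of the 44 lay in the lowest group, with an upper bound of 3.69% for the share. The shares in the next 4 groups were 9.18%, 9.18%, 14.3% and 12.2%, and their intervals overlapped. Median GC went from 55.8% for the weakest group to 50.3% for the strongest, and the number of CpG-rich regions (defined below) from 22 to 4. The part of base composition in the motif shares was not tested. In all 44 the groups did not overlap, with Pou4f1 the higher, beside 96.5% of the table, and 36 (81.8%) were called higher, beside 64.8%.

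Other motifs were searched in the same windows. EBF, searched as CCCNNGGGA, stood in 6.53% of the 490 windows (4.51 to 9.09%) against 2.55% of flanks (1.66 to 3.74%), and in 6.14% at starts. The E-box CAGCTG, a site of bHLH factors, stood in 15.3% (12.2 to 18.8%) against 9.69% (7.91 to 11.7%), and the homeodomain core TAATTA, which can overlap the POU motif, in 7.14% (5.03 to 9.79%) against 4.59% (3.37 to 6.10%). For EBF and CAGCTG the intervals of windows and flanks did not overlap. Those of TAATTA did, as did those of the Onecut site TATTGAT (3.27% against 1.53%), the octamer ATGCNAAT (2.24% in both), the Sox site AACAATG (1.63% against 2.86%), the AP-1 site TGANTCA (5.10% against 6.84%), the E-box CAGATG (18.4% against 17.3%) and the CRE TGACGTCA (0.41% against 0.31%). NRF1, a factor of CpG island promoters, matched in 0.82% of the regions (0.22 to 2.08%) and in 6.55% of those at starts (5.89 to 7.26%). CTCF matched in 3 of the 490, and the palindromic NFI site in 0, with an upper bound of 0.75%. TAATNAT, which lies in the POU letters only where N is T, stood in 12.7% against 8.47% of flanks, with overlapping intervals. A match is a string of letters and does not show binding.

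The base composition of the regions differed from that of starts. Median GC was 51.4% (51.1% upstream and 52.8% downstream), against 62.7% in regions within 1 kb of a start, and the median ratio of observed to expected CpG was 0.26 against 0.77. The central window was richer in GC than its flanks in 359 of the 490 (73.3%). A group of 58 was CpG-rich (GC at least 55% and observed to expected CpG at least 0.6, limits chosen after the values were seen), of which 16 lie within 1 kb of a RefSeq start. These 58 had a Pou4f1 signal of 160 and 105 (medians) and IgG of 11.0 and 8.98, against 191 and 226 and 1.31 and 0 in the other 432. The POU motif stood in 1 of the 58 and in 43 of the 432.

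The 2 Pou4f1 libraries were balanced over the intergenic regions and not over the table. Dividing replicate 2 by replicate 1 gave a median of 1.06 for the 494, 1.07 upstream and 1.01 downstream, against 1.25 beyond 50 kb, 1.16 within genes and 0.70 within 1 kb of a start. With 1 library per replicate the ratio has no test. Replicate 2 was over 2-fold higher at 38 of the 494 and replicate 1 at 49. By distance from the coding start, the median ratio was 0.93 at 1 to 5 kb, 0.91 at 5 to 10 kb, 1.01 at 10 to 25 kb and 1.16 at 25 to 50 kb, while the share of CpG-rich regions went from 17.7% to 7.43%. Without the CpG-rich regions the ratio was 1.01, 1.04, 1.07 and 1.19 over the same bins. It was 0.74 in the CpG-rich regions, with replicate 2 higher in 8 of 58, and 1.18 in those with a central POU motif, with replicate 2 higher in 36 of 44.

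**Figure D4:**
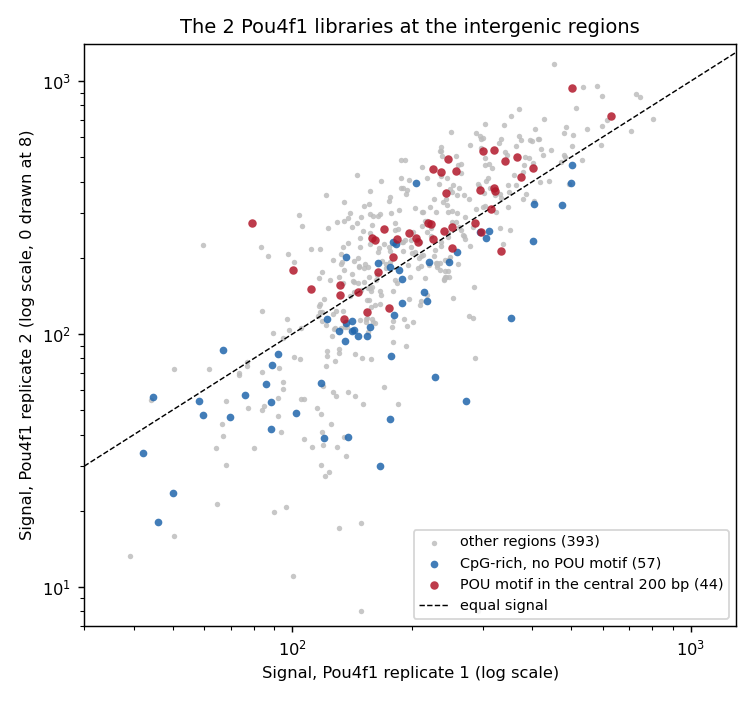
Signal in Pou4f1 replicate 2 (vertical axis) against replicate 1 (horizontal axis), both logarithmic, for each of the 494 regions, with values of 0 drawn at 8. Red points are the 44 with a POU motif in the central 200 bp, blue points are 57 CpG-rich regions without one, and the dashed line marks equal signal. Most red points lie above the line and most blue points below it.

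A few regions had more signal in the controls. The 17 with both Pou4f1 values below both IgG values were 11 upstream and 6 downstream. Of these, 16 lie on assembled chromosomes, and 12 of the 16 had over 50% of their bases soft-masked as repeats or low-complexity sequence in the genome file, against 4 of the 458 with Pou4f1 above IgG on chromosomes. Over the 490, 19 regions (3.88%) were masked over more than 50% of their length, a measure added after the values were seen, against 0.058% of the regions at starts and 9.0% of those beyond 50 kb. In these 19 the median signal was 68.1 and 56.4 in Pou4f1 and 93.8 and 103 in IgG, and 8 were CpG-rich. The regions called lower by limma lay upstream of Frem1, a basement membrane protein gene, with 58.3 and 54.5 against 208 and 229 (log2 difference -1.93 ± 0.38, adjusted p = 0.028), of 2310046K23Rik with 59.8 and 47.6 against 152 and 208 (adjusted p = 0.043), and of A730046J19Rik with 76.1 and 57.2 against 177 and 261 (adjusted p = 0.049, chosen after its values were seen). All 3 were masked over 100% of their length. Upstream of Acin1, a splicing-associated gene, the log2 difference was the lowest at -2.03 ± 1.13, with 50.1 and 23.5 against 60.0 and 341, but the IgG libraries lay far apart there and the call did not pass (adjusted p = 0.17).

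The 4 regions on scaffolds, all downstream, had IgG signals from 93.7 to 201. The 3 assigned to AC149090.1 had log2 differences of -0.01, 0.17 and 0.34, and their sign changed with the scaling or with the IgG library used. The fourth, near AC140325.4, had 50.5 and 72.7 in the Pou4f1 replicates against 201 and 165 (adjusted p = 0.051). Without the scaffolds, 336 of 490 regions were called higher. Leaving out the 19 masked regions gave 334 higher and 0 lower of 475, and a median log2 difference of 5.76. Replicate 2 of Pou4f1 was listed at 0 in 2 regions, one of 67 bp upstream of Tas2r139, a bitter taste receptor gene, with 291 in replicate 1, and one upstream of Atp2c2, a calcium pump gene, with 149.

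**Figure D5:**
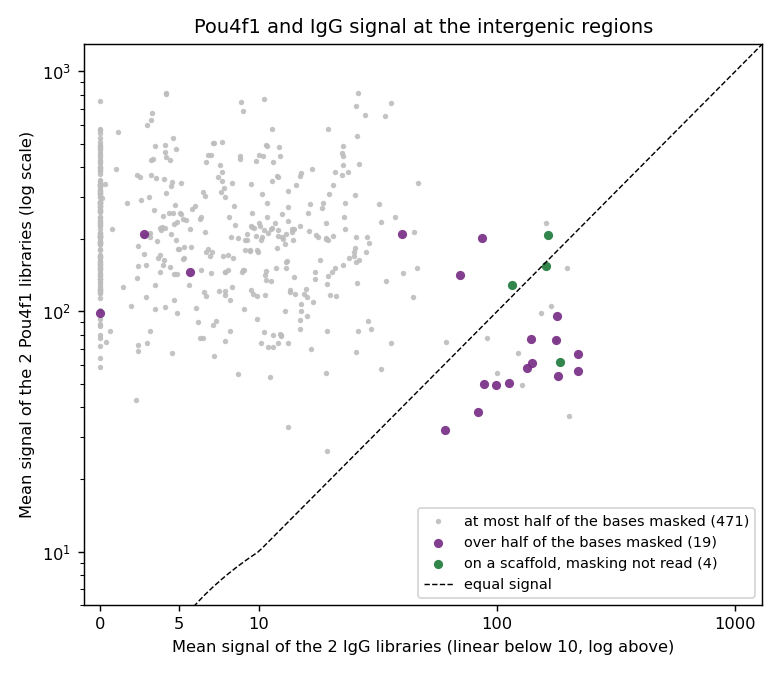
Mean signal of the 2 Pou4f1 libraries (vertical axis, logarithmic) against that of the 2 IgG libraries (horizontal axis, linear below 10 and logarithmic above) for the 494 regions. Purple points are the 19 with over 50% of their bases masked, green points the 4 on scaffolds, and the dashed line marks equal signal. Most purple points lie at IgG signals above 50 and below the line.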

How the data were processed

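The authors trimmed and masked the reads, aligned them to mm10 with Bowtie2 2.4.5 and called regions with SEACR (names and version from the submitters' processing notes). They deposited 1 table with a signal per region for 4 libraries, and no source used here states its scaling. Deposited starts count from 0 and are printed from 1. Limma 3.58.1 (R 4.3.3) compared Pou4f1 with IgG on log2(signal + 1), with no covariate and no rescaling. P-values were adjusted by Benjamini-Hochberg over the 8038 regions, with 0.05 as threshold. A log2 difference understates low regions, and none is given where both IgG libraries are at 0. Genes came from GENCODE M21, with the 5' end of the gene record as start, and sequence, soft-masking and RefSeq starts from GRCm38.p6, which has the mm10 coordinates. Shares have 95% Clopper-Pearson intervals. Python 3.11.15 was used. In simulated sequence the motif search found all 2800 planted sites. In simulated signal with 200 of 8038 regions raised by the table's median difference, limma called 0 of them. With 7838 raised it called 79.4% of these and 8 that were not raised. In these simulations a call thus depended on how much of the table was raised. They dealt the observed spreads to regions at random, whatever their IgG values, so the shares need not hold for the data.

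The regions and gene lists were chosen with earlier results of these data known. Regions named are the 5 strongest on each side, up to 5 per gene list, those with a study amplicon or coordinate, the 3 lowest differences, those at the limits, genes with 3 or more regions, and 8 with a central POU motif, outside chromosome 18. Some regions that the rule names are not reported here. Alternatives were other pseudocounts, IgG scalings, filters, left-out libraries, limits and motif windows.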

Additional observations from a re-analysis of the deposited data

How the results depend on the processing

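No paired analysis was possible because the IgG columns carry no replicate number. Of 494 intergenic regions, limma called 336 higher and 3 lower, with a median log2 difference of 5.65. IgG taken as 2 times shallower gave 198 and 9, 4 times shallower 155 and 16 with a median of 4.71, column totals as library sizes 137 and 24 with 3.22, a pseudocount of 0.1 217 and 1 with 7.37, and of 10 446 and 8 with 3.73. Limma with a trend called 5 lower. Leaving out 1 library gave 164 to 460 higher and 2 to 6 lower. Over all regions these scalings moved the median by -0.51, -1.02 and -2.48. Column totals were summed over regions chosen by Pou4f1 signal and set the mean signals equal, so a fall is built into that scaling. The 84 regions of the gene lists went from 59 higher to 32, 24, 19 and 31 under the same scalings and the low pseudocount, and to 24 to 82 with 1 library left out.

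With starts of any coding transcript 188 regions lay downstream, and a limit of 100 kb gave 200. A limit of 25 kb gave 316 regions, 62 of them downstream, 205 higher, a replicate ratio of 0.97 and a negative control median of 4.61. Allowing bodies of non-coding genes gave 5 lower. Without the masked regions, an alternative chosen after seeing the data, 0 were lower and the IgG median was 0. The POU share was 16.1% in 400 bp and 21.6% in the whole region. The string TAATNAT, tried in place of the POU letters but only partly contained in them, gave 12.7%. Mean signals were 216, 253, 15.9 and 16.55, medians per base 0.21, 0.23 and 0.0029 (IgG), and the ratio of medians 1.13. The cause of these moves was not tested.

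With column totals the log2 difference turned negative for Ptma (-0.93 and -1.62), Btg2 (-1.87), Ndufa4l2 (-0.84), Irx1 (-2.83, and -0.81 with IgG 4 times shallower), Cartpt (-0.46), Rtl6 (-0.048), Rbfox1 (-1.24), Pou4f3 (-0.49) and Crb2 (-0.29). For the scaffold gene AC149090.1, -0.01 ranged from -0.34 to 0.31 with 1 library left out, 0.17 ranged from -0.10 to 0.45 and became -0.82, -1.82 and -3.85 with IgG 2 and 4 times shallower and with column totals, and 0.34 became -0.66, -1.65 and -3.69 with the scalings. With 2 libraries a group and no depth given, single regions cannot be resolved further.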
